A study of Mus musculus with 12 samples.

Results

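The antigen presentation genes of the major histocompatibility complex (MHC) were followed across left (LV) and right ventricles (RV) of mice carrying human phospholamban (PLN). The 9 genes were Cd74, H2-Aa, H2-Ab1, H2-Eb1, H2-DMa, Ciita, H2-K1, H2-D1 and B2m, chosen by symbol out of 33641 genes listed in each sample. All 9 were found in all 12 samples. Of these, 8 passed the filter on low values (a mean over the 12 samples of 0.5 TPM or more, TPM being each gene's length-scaled share of all transcripts), and Ciita did not.

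PLN restrains the calcium pump of the sarcoplasmic reticulum, and R14del is a human PLN variant lacking an arginine that is linked to cardiomyopathy with arrhythmia. Bulk RNA was sequenced from 4 groups of 3 samples each, namely both ventricles of WT-PLN and both ventricles of R14del-PLN mice, all labelled C57BL/6J and 12 to 14 weeks of age. According to the methods, every animal was a male with the human PLN coding sequence knocked in at exon 2 of the mouse gene. The WT-PLN controls therefore carried human wild-type PLN, and the R14del-PLN animals were heterozygous for the human variant. The line was started from chimeric males of mixed 129/Sv-CP and C57Bl/6J origin and bred with Sox2-Cre mice, so it was described as a hybrid line. The labels do not tie an LV to an RV sample of the same heart, and p-values measure only the spread between these samples.

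MHC class II molecules present peptides taken from outside the cell to CD4+ T cells. They are made by macrophages, dendritic cells and B cells, which in the healthy heart are a small fraction of cells. MHC class I molecules present peptides from inside the cell to CD8+ T cells and are made by nearly all nucleated cells. H2-Aa and H2-Ab1 encode the alpha and beta chains of the class II molecule I-A, and H2-Eb1 the beta chain of I-E. Cd74 is the invariant chain that fills the class II groove until H2-DM, to which H2-DMa contributes a chain, exchanges it for peptide. Ciita is the transactivator that switches on the class II genes. H2-K1 and H2-D1 encode class I heavy chains, and B2m the light chain that both share.

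On the GRCm38 mouse genome (GENCODE M21), 6 of the 9 genes lay in the H2 complex of chromosome 17. H2-K1 was at chr17:33996017-34000347, H2-DMa at chr17:34119541-34139101, H2-Ab1 at chr17:34257689-34269419, H2-Aa at chr17:34282744-34287823, H2-Eb1 at chr17:34305867-34316674 and H2-D1 at chr17:35262730-35267499. B2m was at chr2:122147686-122153083 and Ciita at chr16:10480059-10528418; Cd74 lies on a further chromosome. All are protein-coding. Of the distinct 50-base stretches in their transcripts, 9.63% in H2-K1 and 12.8% in H2-D1 also occurred in transcripts of other genes, most often H2-Q10 for H2-K1 and H2-Q1 for H2-D1. The levels of these class I chains are uncertain to that extent. H2-Aa shared 0.488% of its stretches with other genes, 58 in number and 9530046B11Rik among them, and the other 6 genes shared none.

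As background, class II promoters share X and Y boxes and class I genes also have upstream elements of their own, so the bases just before the start of 4 genes are shown. Sequences are from RefSeq (GRCm38.p6), written 5′ to 3′ on the gene's strand and ending at the base before the transcription start. Capitals mark GCAAC, the core of the X1 box, TGACG, the core of the X2 box, and CTGATTGG or its inner ATTGG, the Y box. In the class I genes they also mark GGGGATTCC, a kappa B motif, and TTTCACTTC, an interferon-stimulated element. Both strands were searched.
H2-Aa, chr17:34287824-34287973, minus strand: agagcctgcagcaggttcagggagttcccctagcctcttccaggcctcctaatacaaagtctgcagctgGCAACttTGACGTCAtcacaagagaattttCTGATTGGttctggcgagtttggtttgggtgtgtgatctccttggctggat
H2-Eb1, chr17:34305717-34305866, plus strand: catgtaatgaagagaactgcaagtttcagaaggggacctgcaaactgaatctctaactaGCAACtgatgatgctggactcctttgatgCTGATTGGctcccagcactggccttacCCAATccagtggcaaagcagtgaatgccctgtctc
H2-K1, chr17:34000348-34000497, minus strand: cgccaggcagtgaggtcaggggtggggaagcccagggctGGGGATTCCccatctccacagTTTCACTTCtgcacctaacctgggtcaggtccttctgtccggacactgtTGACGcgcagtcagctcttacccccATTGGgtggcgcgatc
B2m, chr2:122147537-122147685, plus strand: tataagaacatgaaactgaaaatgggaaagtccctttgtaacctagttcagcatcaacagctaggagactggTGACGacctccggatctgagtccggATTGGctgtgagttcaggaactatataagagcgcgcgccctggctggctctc

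H2-Aa and H2-Eb1 both had GCAAC followed by CTGATTGG, at 81 and 51 bases before the start in H2-Aa and at 91 and 62 in H2-Eb1. H2-D1 also held these letters, with CTGATTGG in reverse complement at 53 bases and GCAAC at 14 bases and, in reverse complement, at 212 bases. H2-K1 had GGGGATTCC, TTTCACTTC and TGACG in that order at 111, 90 and 41 bases, and H2-D1 had the same 3 in the same order at 171, 150 and 101 bases before its RefSeq start. That start lies inside the GENCODE gene, so the sequence of H2-D1 is not shown. B2m had TGACG at 78 and ATTGG at 53 bases. Over the 250 bases before each of 32851 RefSeq starts, CTGATTGG was found in 3.83%, GCAAC in 29.9%, TGACG in 17.8%, ATTGG in 33.8%, GGGGATTCC in 0.213% and TTTCACTTC in 0.402%. The motifs were chosen with the sequences in view, ATTGG lies within CTGATTGG, and a match describes letters and not binding. In H2-DMa only GCAAC was found, in reverse complement. Its RefSeq start also lies inside the GENCODE gene, and the bases before it overlap an exon, so its sequence is not shown. The bases before the GENCODE start of H2-DMa were not searched. An entry was matched for 6 of the 9 genes, not for H2-Ab1, Cd74 or Ciita.

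Some libraries stood apart or went against their labels. TPM values have the same sum in every sample and give neither depth nor counting error. Mitochondrially encoded genes took 37.3% to 54.5% of the TPM, lowest in LV R14del-PLN sample 3. In both WT-PLN samples numbered 1, the Y-linked genes Ddx3y and Eif2s3y were at 0.0159 to 0.0703 TPM, against 15.8 to 30.6 TPM in the other 10, although the methods name only males. The file of RV R14del-PLN sample 3 names another sequencing run than the rest. Cardiomyocyte markers summed to 28454 to 43159 TPM over all samples, as the labelled tissue would have.

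Both R14del-PLN samples numbered 1 stood apart in the MHC genes themselves. The ratio of H2-K1 to H2-D1 was 0.403 in the LV and 0.476 in the RV sample, and lay between 0.811 and 0.949 in the other 10 samples. The ratio of H2-Eb1 to H2-Aa was 0.325 and 0.333 in this pair, against 0.706 to 0.881 in the others. H2-Ab1 to H2-Aa was 0.522 in both, against 0.621 to 0.779. These 2 samples thus differed from the other 10 in the balance between chains, whatever the overall level.

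In the same pair of samples, transcripts of other genes of the H2 complex were present that were at or near 0 elsewhere. H2-Ea-ps, annotated as a pseudogene of the I-E alpha chain (chr17:34341959-34344645), was at 0.414 and 0.751 TPM and was listed at 0 in the other 10 samples. H2-Bl was at 2.01 and 1.60 TPM, against 0.114 TPM at most elsewhere, and H2-T10 at 2.48 and 2.71, against 1.00 TPM at most. As background, the H2 genes differ in sequence between inbred strains, the Ea gene is not expressed in C57BL/6 mice, and reads were mapped to the C57BL/6J reference. The part of the animals' strain origin in these values was not tested. Comparisons that include R14del-PLN samples were therefore repeated without these 2 samples, a choice made, like the genes named here, after the data were seen. Members whose values without them are not given beside their own results follow here. Without them, the log2 differences between genotypes in the LV were -0.47 for H2-DMa, -0.10 for Ciita, -0.27 for H2-D1 and -0.27 for B2m. In the RV they were -0.20 for H2-DMa, -0.10 for Ciita, -0.25 for H2-K1, -0.22 for H2-D1 and -0.18 for B2m. Between RV and LV in R14del-PLN they were -0.26 for H2-Aa, 0.03 for H2-DMa, -0.41 for H2-K1, -0.46 for H2-D1 and -0.38 for B2m, and none of these was called.

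**Figure D1:**
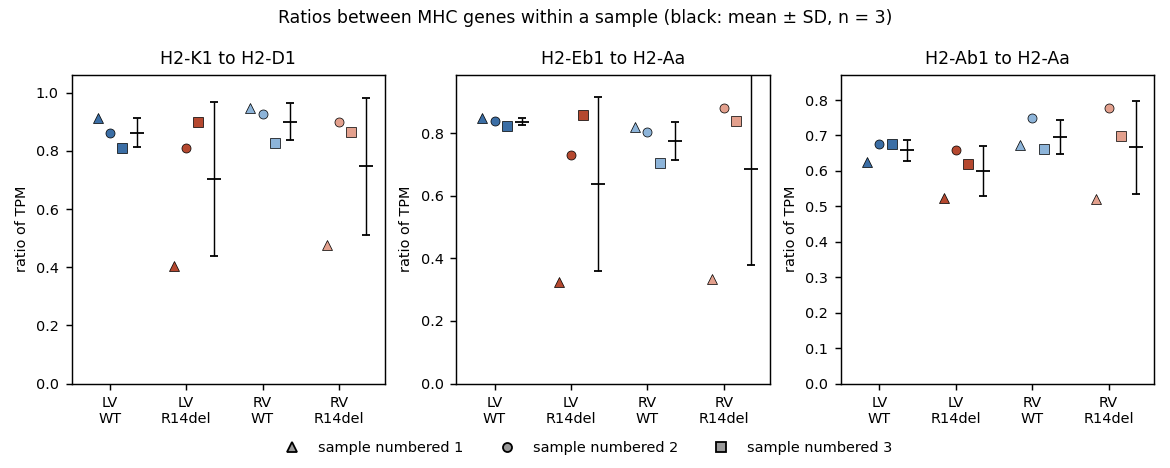
Ratios of TPM between MHC genes within each sample (vertical axis, no unit), by ventricle and genotype; symbols give the sample number and black bars the mean ± SD of 3 samples. Both R14del-PLN samples numbered 1 (triangles) sit at 0.403 and 0.476 for H2-K1 to H2-D1 and at 0.325 and 0.333 for H2-Eb1 to H2-Aa, below all other samples.

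TPM is scaled to transcript length, so levels can be set side by side between genes. Over all 12 samples, B2m had the highest mean level (123 ± 26.3 TPM, SD, n = 12), followed by Cd74 (65.1 ± 22.99), H2-D1 (57.3 ± 13.4), H2-K1 (45.0 ± 12.0), H2-Aa (37.3 ± 12.8), H2-Eb1 (27.2 ± 12.5) and H2-Ab1 (24.3 ± 8.84). H2-DMa (2.38 ± 0.729 TPM) and Ciita (0.318 ± 0.0837 TPM) were far lower. From Cd74 down to H2-Ab1, each mean was within 1 SD of its neighbour, but this SD also holds the differences between groups. Within single samples some orders held in all 12. Cd74 was 1.51 to 1.85 times H2-Aa, H2-Ab1 was 0.522 to 0.779 times H2-Aa, and H2-K1 was 0.403 to 0.949 times H2-D1. H2-Eb1 was 0.622 to 1.38 times H2-Ab1, so their order varied. The summed class II chains H2-Aa, H2-Ab1 and H2-Eb1 were 1.13 to 1.61 times Cd74, and B2m was 1.08 to 1.48 times the sum of H2-K1 and H2-D1.

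The effect of R14del-PLN in the LV was the first comparison. The class II genes were lower in R14del-PLN than in WT-PLN: Cd74, H2-Aa, H2-Ab1 and H2-Eb1 had ranges that did not overlap between the groups. Even so, no member was called in limma on log2(TPM + 1), where calling a gene took an adjusted p (Benjamini-Hochberg, 12526 genes) no higher than 0.05 together with a change of 1.5-fold or more. At an unadjusted p under 0.05, 6 of the 8 tested members were lower and none higher, against 7.85% of all tested genes that were lower at that p. Ranges lay apart downwards in 4 of the 8, against 8.47% of all genes, and calls in either direction made up 0.519% of all genes. The members' median log2 difference was -0.67, and that of all genes was -0.09.

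Cd74 was at 67.1, 100.1 and 110.0 TPM in LV WT-PLN samples 1 to 3 and at 54.4, 41.3 and 49.4 TPM in LV R14del-PLN samples 1 to 3. The lowest WT-PLN sample was number 1, and it still exceeded the highest R14del-PLN sample. The means were 92.4 ± 22.5 and 48.4 ± 6.61 TPM (SD, n = 3 each), a log2 difference of -0.90 ± 0.23 (SE, limma adjusted p = 0.136).

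H2-Eb1 had the largest difference among the members. It stood at 31.8, 46.1 and 51.7 TPM in WT-PLN and at 10.8, 17.2 and 27.5 TPM in R14del-PLN. The groups did not overlap, and the low value of 10.8 TPM was that of sample 1, which also had the odd ratio to H2-Aa. The log2 difference was -1.25 ± 0.28 (SE, limma adjusted p = 0.0747). Without both R14del-PLN samples numbered 1 it was -0.93 (adjusted p = 0.261), so part of its size rested on that sample.

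The I-A chains differed by similar amounts. H2-Aa was at 37.6, 55.0 and 62.8 TPM in WT-PLN and at 33.1, 23.5 and 32.0 TPM in R14del-PLN, a log2 difference of -0.77 ± 0.26 (SE, limma adjusted p = 0.302). H2-Ab1 was at 23.5, 37.2 and 42.4 TPM and at 17.3, 15.5 and 19.9 TPM, a difference of -0.90 ± 0.22 (adjusted p = 0.132). In both genes WT-PLN sample 1 was the lowest of its group and lay just above the R14del-PLN samples. Without the R14del-PLN samples numbered 1 the log2 differences were -0.86 for H2-Aa, -0.89 for H2-Ab1 and -0.99 for Cd74 (adjusted p 0.322, 0.370 and 0.173), close to those with all samples.

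Calls in the LV depended on single samples and on scaling. When the LV WT-PLN sample 1 was left out, Cd74 (-1.11, limma adjusted p = 0.0374), H2-Ab1 (-1.14, adjusted p = 0.0241), H2-Eb1 (-1.45, adjusted p = 0.0374) and H2-DMa (-0.78, adjusted p = 0.0327) were called lower. The same 4 genes were called when both WT-PLN samples numbered 1, which lack the Y-linked transcripts, were left out, with adjusted p between 0.00562 and 0.0315. Without LV R14del-PLN sample 3, H2-Eb1 (-1.57, adjusted p = 0.0193) and H2-K1 (-0.82, adjusted p = 0.0180) were called lower. H2-Eb1 was also called when the values were rescaled, as given in the closing section.

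The regulators and editors of class II were low throughout. H2-DMa was at 2.01, 3.93 and 3.56 TPM in LV WT-PLN and at 1.44, 1.61 and 2.30 TPM in LV R14del-PLN. The groups overlapped by 1 sample on each side, WT-PLN sample 1 and R14del-PLN sample 3, and the log2 difference was -0.56 ± 0.18 (SE, limma adjusted p = 0.272). Ciita was at 0.255, 0.387 and 0.458 TPM and at 0.266, 0.195 and 0.365 TPM, with overlapping groups. In a fit over all listed genes its log2 difference was -0.10 ± 0.07 (SE, adjusted p = 0.762), and at this level the added 1 TPM understates any change.

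Class I genes had smaller log2 differences in the LV than Cd74 and the class II chains when all samples were used. H2-K1 was at 56.1, 62.2 and 57.7 TPM in WT-PLN and at 29.0, 36.8 and 63.1 TPM in R14del-PLN. The R14del-PLN samples spread widely, with samples 1 and 2 below and sample 3 above every WT-PLN value, and the log2 difference was -0.51 ± 0.21 (SE, limma adjusted p = 0.443). It shrank to -0.28 without the R14del-PLN samples numbered 1. H2-D1 was at 61.6, 72.1 and 71.1 TPM and at 72.0, 45.3 and 70.2 TPM, with only R14del-PLN sample 2 low. B2m was at 148, 168 and 147 TPM and at 114, 101 and 161 TPM, again with R14del-PLN sample 3 among the WT-PLN values. In that sample mitochondrially encoded genes took 37.3% of the TPM, against 44.0% to 47.3% in LV WT-PLN. A smaller mitochondrial share leaves more TPM to all other genes. The part of this share in the overlap of H2-K1 and B2m was not tested. The log2 differences of H2-D1 and B2m were -0.15 ± 0.21 and -0.33 ± 0.17 (SE, limma adjusted p = 0.890 and 0.586). Without LV R14del-PLN sample 3, B2m was at -0.52 (limma adjusted p = 0.144) and H2-K1 at -0.82, which was called (adjusted p = 0.0180).

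**Figure D2:**
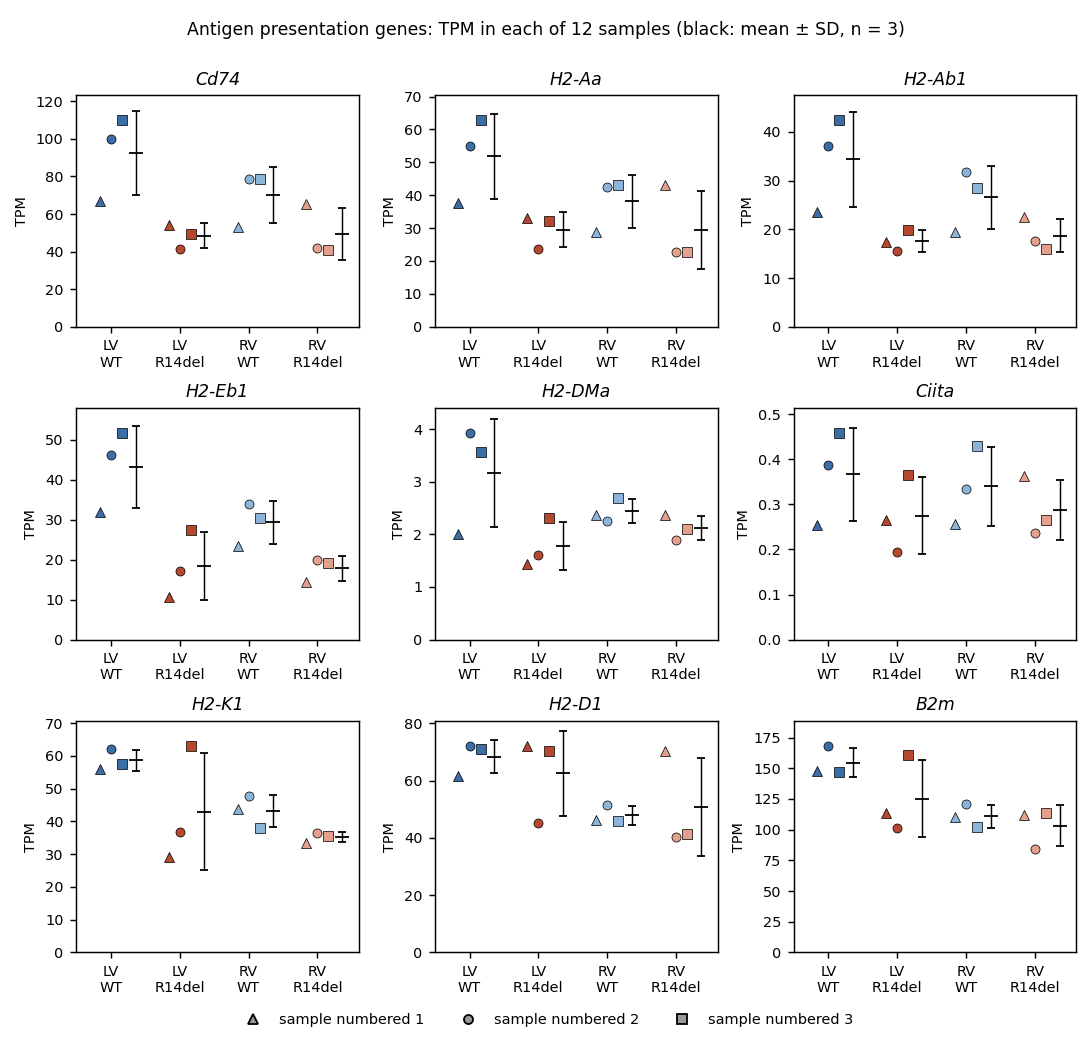
TPM of each of the 9 genes (vertical axes, linear from 0) in each of 12 samples by ventricle and genotype; symbols give the sample number and black bars the mean ± SD of 3 samples. In the LV the R14del-PLN samples lie below all WT-PLN samples for Cd74, H2-Aa, H2-Ab1 and H2-Eb1, while H2-K1, H2-D1 and B2m overlap. For H2-K1 and B2m the overlap comes only through R14del-PLN sample 3, the sample with the lowest mitochondrial share.

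In the RV the same comparison of genotypes gave smaller differences. No member was called, and 0.271% of all genes were called in either direction. At an unadjusted p under 0.05, 2 of the 8 tested members, Cd74 and H2-Eb1, were lower in R14del-PLN and none higher, against 3.4% of all genes that were lower. Ranges lay apart downwards in 2 of the 8, H2-Eb1 and H2-K1, against 5.79% of all genes. The members' median log2 difference was -0.34, and that of all genes was 0.00 to 2 decimals.

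Cd74 was at 53.2, 78.5 and 78.9 TPM in RV WT-PLN samples 1 to 3 and at 65.2, 41.9 and 40.8 TPM in RV R14del-PLN samples 1 to 3. The groups overlapped only through the samples numbered 1, the lowest of WT-PLN and the highest of R14del-PLN. The log2 difference was -0.51 ± 0.23 (SE, limma adjusted p = 0.784) and was -0.73 without the R14del-PLN samples numbered 1 (adjusted p = 0.376). H2-Aa had the same shape, at 28.8, 42.5 and 43.1 TPM in WT-PLN and at 43.2, 22.7 and 22.7 TPM in R14del-PLN, with R14del-PLN sample 1 at the top of all 6. Its log2 difference went from -0.40 ± 0.26 (SE, limma adjusted p = 0.995) to -0.70 (adjusted p = 0.448) without that pair.

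H2-Ab1 was at 19.4, 31.9 and 28.6 TPM in RV WT-PLN and at 22.6, 17.7 and 15.9 TPM in RV R14del-PLN, overlapping through the samples numbered 1 once more. H2-Eb1, at 23.5, 34.1 and 30.4 TPM against 14.4, 19.98 and 19.1 TPM, was the class II chain whose groups lay apart. There the R14del-PLN sample 1 was the lowest of the 6, although the same sample was the highest for H2-Aa. The log2 differences were -0.47 ± 0.22 for H2-Ab1 and -0.69 ± 0.28 for H2-Eb1 (SE, limma adjusted p = 0.823 and 0.675). Without the R14del-PLN samples numbered 1 they were -0.61 and -0.55 (adjusted p = 0.593 and 0.624).

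H2-DMa (2.37, 2.26 and 2.70 TPM against 2.36, 1.90 and 2.10 TPM) and Ciita (0.255, 0.335 and 0.430 TPM against 0.363, 0.237 and 0.264 TPM) overlapped between genotypes in the RV. H2-K1 was at 43.7, 47.8 and 37.9 TPM in WT-PLN and at 33.5, 36.4 and 35.7 TPM in R14del-PLN, with the groups just apart. Its log2 difference was -0.28 ± 0.21 (SE, limma adjusted p = 1). H2-D1 was at 46.1, 51.6 and 45.9 TPM and at 70.5, 40.4 and 41.2 TPM, so that R14del-PLN sample 1 was above and the other two were below every WT-PLN sample. Its log2 difference of 0.04 ± 0.21 (SE, adjusted p = 1) became -0.22 without the R14del-PLN samples numbered 1. B2m was at 109.9, 121 and 102 TPM and at 112, 83.9 and 114 TPM, with overlapping groups.

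The difference between genotypes was not shown to differ between ventricles. The interaction of genotype and ventricle was called for no member and for 0% of all genes, and no member had an unadjusted p under 0.05. Interaction estimates of the 8 tested members lay between 0.19 and 0.56 on the log2 scale, highest for H2-Eb1 (95% interval -0.28 to 1.40, limma adjusted p = 1.00). For Cd74 the estimate was 0.39 (95% interval -0.30 to 1.08). These intervals include both no difference and a difference as large as that of the genotypes in the LV.

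**Figure D3:**
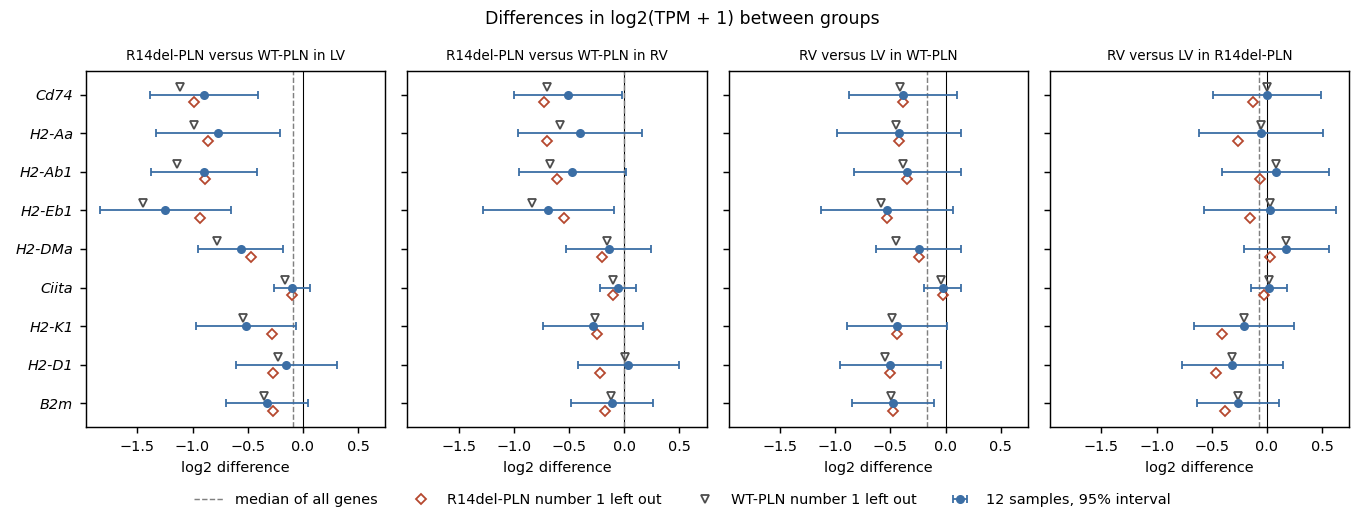
Difference in log2(TPM + 1) for each gene (horizontal axis) in the 4 comparisons, with limma 95% intervals over 12 samples; open diamonds leave out both R14del-PLN samples numbered 1, open triangles both WT-PLN samples numbered 1, and the dashed line is the median of all genes tested. In the LV the estimates for Cd74, H2-Aa, H2-Ab1 and H2-Eb1 lie between -1.25 and -0.77.

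RV and LV were then compared within WT-PLN hearts, using the same LV WT-PLN samples as the comparison of genotypes. The 8 tested members were all lower in the RV, with log2 differences from -0.53 (H2-Eb1) to -0.24 (H2-DMa). Without LV WT-PLN sample 1 they were -0.60 for Cd74, -0.63 for H2-Aa, -0.59 for H2-Ab1, -0.73 for H2-Eb1 and -0.46 for H2-DMa, and without RV WT-PLN sample 1 H2-Ab1 was at -0.14. After quantile normalization they were -0.19 for Cd74, -0.22 for H2-Aa, -0.14 for H2-Ab1, -0.34 for H2-Eb1 and -0.08 for H2-DMa, and none was called under these settings. In the comparison of all samples none was called, nor was any of all genes (0%), and the limma adjusted p of the members lay between 0.291 and 0.494. The median of all genes was itself -0.17, with 85.9% of genes lower in the RV, and quantile normalization moved that median to 0.01. The members' median was -0.43 as deposited and -0.23 after quantile normalization, below the median of all genes on both scales. At an unadjusted p under 0.05, 2 of the 8 members were lower, H2-D1 and B2m, against 13.8% of all genes. Ranges lay apart downwards in 3 of the 8, H2-K1, H2-D1 and B2m, against 25.2% of all genes.

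The 3 members with ranges apart were all class I genes, a share near that of all genes. Every RV value of B2m (102 to 121 TPM) lay below every LV value (147 to 168 TPM), a log2 difference of -0.47 ± 0.17 (SE, limma adjusted p = 0.291). H2-D1 averaged 47.9 ± 3.26 TPM in the RV against 68.3 ± 5.78 TPM in the LV (SD, n = 3 each), a log2 difference of -0.50 ± 0.21. H2-K1 had means of 43.1 ± 4.95 and 58.7 ± 3.17 TPM, a log2 difference of -0.44 ± 0.21 (SE, limma adjusted p = 0.312 and 0.350 for H2-D1 and H2-K1). After quantile normalization the log2 differences of B2m, H2-D1 and H2-K1 were -0.27, -0.30 and -0.24. For the class II genes, RV and LV values overlapped, and the LV sample 1 was low. Within each same-numbered pair of WT-PLN samples, the RV value was below the LV value for Cd74, H2-Aa, H2-Ab1 and H2-Eb1 (3 of 3 pairs each), as it was for 58.1% of all genes, and the fit with the replicate number as a block called none of them. Cd74, for example, had means of 70.2 ± 14.7 and 92.4 ± 22.5 TPM in WT-PLN RV and LV.

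In R14del-PLN hearts no member separated RV from LV. None of the 8 tested members was called (0% of all genes were), none had an unadjusted p under 0.05, against 6.07% of all genes that were lower in the RV, and none had ranges apart, against 8.72%. The log2 differences lay between -0.32 (H2-D1) and 0.18 (H2-DMa), with limma adjusted p of 0.870 and above. Cd74 averaged 49.3 ± 13.8 TPM in the RV against 48.4 ± 6.61 TPM in the LV, a log2 difference of 0.00 with a 95% interval from -0.49 to 0.49. Without the samples numbered 1 the difference of Cd74 was -0.12, that of H2-Ab1 -0.06 and that of H2-Eb1 -0.15, all turned from above to below 0. None of these was called.

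Other genes of the pathway were read from 4 lists. Of the genes for class I peptide supply and loading, all 13 were tested and none was called in any comparison. This list includes the peptide transporter Tap1 and Tap2, the immunoproteasome subunits and the chaperone calreticulin, Calr. Its most abundant members were Calr (116 TPM on average over 12 samples), Canx (99.3), Psme1 (98.5) and Pdia3 (45.0). Between genotypes the list's median log2 difference was -0.03 in the LV, with 0 of 13 at an unadjusted p under 0.05, and 0.06 in the RV, also with 0 of 13. Between RV and LV it was -0.27 in WT-PLN, with 2 of 13 lower at that p, and -0.11 in R14del-PLN, with 1 of 13 lower.

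Genes for class II loading and invariant chain processing numbered 11, of which 7 were tested. None was called in any comparison. The most abundant genes of the list were the proteases Ctsb (79.4 TPM on average), Ctsl (54.6), Lgmn (35.1) and Sppl2a (13.7), the last of which cuts the remnant of the invariant chain. The median log2 difference between genotypes was -0.12 in the LV and -0.05 in the RV, near the -0.09 and 0.00 of all genes. At an unadjusted p under 0.05, 2 of the 7 were lower in each ventricle, H2-DMb1 and Ifi30, named here after their values were seen. H2-DMb1 encodes the partner chain of H2-DMa, and its mean was 2.62 ± 0.524 TPM in LV WT-PLN and 1.39 ± 0.529 TPM in LV R14del-PLN. Ifi30, a thiol reductase of the same compartment, was at 9.40 ± 1.66 and 6.01 ± 0.410 TPM (SD, n = 3 each). Their log2 differences in the LV were -0.61 and -0.56 (limma adjusted p = 0.172 and 0.163).

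The list of other class I heavy chains and related molecules had 12 genes, 11 of them tested and none called. Fcgrt (35.4 TPM on average), H2-T22 (10.8), H2-T23 (9.64) and H2-Q4 (9.54) were its most abundant members. Its median log2 difference between genotypes was -0.23 in the LV, with 2 of 11 lower at an unadjusted p under 0.05, and 0.04 in the RV, with 0 of 11. Between RV and LV the median was -0.37 in WT-PLN (2 of 11 lower) and -0.18 in R14del-PLN (1 of 11 lower). Many of these chains are near-copies of each other and of H2-K1 and H2-D1, and their reads cannot be fully told apart.

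Genes of transcriptional control and of the interferon-gamma receptor numbered 16, and all were tested without a call. Ifngr2 (64.8 TPM), Jak1 (33.8), Nfyc (22.3) and Ifngr1 (19.7) were the most abundant. Rfx5, Rfxap and Rfxank, which form the complex that binds the X box, were at 1.69, 8.55 and 6.89 TPM, above Ciita itself. Nfya, Nfyb and Nfyc, which form the complex that binds the Y box, were at 5.82, 4.98 and 22.3 TPM. Between genotypes the list's median log2 difference was -0.12 in the LV (2 of 16 lower at an unadjusted p under 0.05) and 0.04 in the RV (0 of 16). Between RV and LV it was -0.17 in WT-PLN (4 of 16 lower) and -0.10 in R14del-PLN (0 of 16), close to the medians of all genes, -0.17 and -0.08.

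Markers of the cells that make MHC molecules were read beside these results. In bulk samples, fewer cells of a type and less RNA per cell cannot be told apart. Macrophage markers (10 genes, 8 of them tested, none listed at 0 in a whole group) summed to 91.5 to 136 TPM in LV WT-PLN, 94.4 to 124 in LV R14del-PLN, 80.1 to 95.4 in RV WT-PLN and 75.0 to 121 in RV R14del-PLN. Thus the genotypes overlapped in both ventricles. The 121 TPM in RV R14del-PLN was that of sample 1, against 78.4 and 75.0 TPM in samples 2 and 3. That sample was also the highest of its group in Cd74, H2-Aa and H2-Ab1. None of the macrophage markers was called, and 0 of the 8 had an unadjusted p under 0.05 between genotypes in either ventricle. Between RV and LV 1 of 8 was lower in WT-PLN and 0 of 8 in R14del-PLN at that p.

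Class II genes were lower in R14del-PLN also when set against these markers. The sum of Cd74, H2-Aa, H2-Ab1 and H2-Eb1 was 1.75, 1.97 and 1.97 times the macrophage marker sum in LV WT-PLN samples 1 to 3 and 1.56, 1.96 and 1.98 times in RV WT-PLN. It was 1.22, 0.961 and 1.04 times in LV R14del-PLN and 1.20, 1.30 and 1.31 times in RV R14del-PLN. All 6 WT-PLN samples lay above all 6 R14del-PLN samples, those numbered 1 included. LV and RV samples of the same number may share a heart, so the 6 of a genotype need not be independent. In WT-PLN such samples deviated together (r = 0.66, 0.32 and 0.46). Taken against each of the 8 tested macrophage markers alone, the ratio kept the genotypes apart for 5 of them, Adgre1, Csf1r, Cd68, C1qa and C1qc, but not for C1qb, Mrc1 or Ccr2. The same ratios for the sum of H2-K1 and H2-D1, and for B2m, overlapped for all 8. These ratios hold the same MHC values as the comparisons above, were formed after those values were seen and carry no test. The share of all genes whose ratio to these markers would keep the genotypes apart was not computed.

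**Figure D4:**
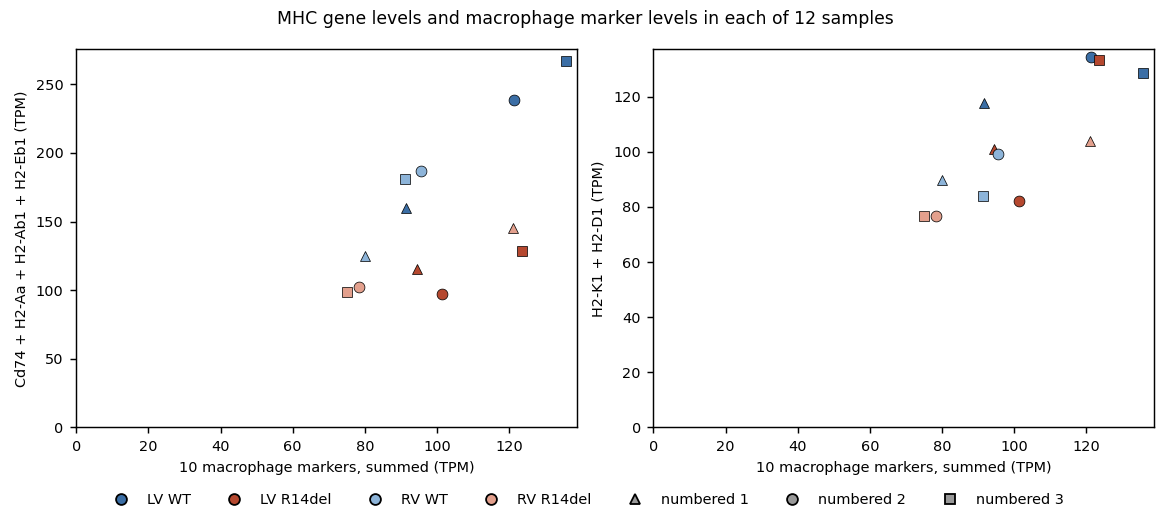
Summed TPM of Cd74, H2-Aa, H2-Ab1 and H2-Eb1 (left) and of H2-K1 and H2-D1 (right) against the summed TPM of 10 macrophage markers in each of 12 samples, coloured by group with symbols for the sample number. The class II sum is 0.961 to 1.31 times the markers in R14del-PLN and 1.56 to 1.98 times in WT-PLN, while the class I sums overlap. This ratio was formed after the values were seen and carries no test. Against C1qb, Mrc1 or Ccr2 alone the genotypes overlap.

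Markers of other cell types were read in the same way. Dendritic cell markers (7 genes, 2 tested) summed to 2.48 to 4.44 TPM, B cell markers (5 genes, none tested) to 0.185 to 0.990 TPM and T cell markers (5 genes, none tested) to 0.539 to 1.27 TPM over all samples. In each list the groups' ranges overlapped between genotypes except for T cell markers in the LV, at 1.05 to 1.27 TPM in WT-PLN and 0.696 to 1.01 TPM in R14del-PLN. Endothelial markers (5 genes, which make class I and little class II) summed to 88.8 to 114 TPM in LV WT-PLN and 66.5 to 80.9 TPM in RV WT-PLN, apart like the class I genes. In R14del-PLN they were at 89.3 to 121 TPM in the LV and 75.4 to 105 TPM in the RV. Between genotypes, 1 of the 5 was higher at an unadjusted p under 0.05 in each ventricle.

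Red cell markers were, like the class II genes, lower in R14del-PLN. The 4 globin genes summed to 2080 to 2307 TPM in LV WT-PLN, 1090 to 2135 in LV R14del-PLN, 1453 to 1730 in RV WT-PLN and 953 to 1362 in RV R14del-PLN. At an unadjusted p under 0.05, 3 of 4 were lower in R14del-PLN in each ventricle, against 7.85% of all genes in the LV and 3.4% in the RV. Their median log2 difference was -0.62 in both. Adipocyte markers (4 genes, 3 tested) were at 2.38 to 5.04 TPM except in LV WT-PLN sample 3 (16.5) and RV R14del-PLN sample 1 (19.3). Cardiomyocyte markers (7 genes) had a median log2 difference between genotypes of -0.01 in the LV and 0.02 in the RV. None of these lists held a called gene, and their part in the MHC values was not tested.

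Across the 12 samples, Cd74 followed H2-Aa (Pearson r = 0.98 on log2(TPM + 1)) and H2-Ab1 (r = 0.97) closely, and with group means removed r was 0.98 and 0.93. H2-Eb1 followed Cd74 less (r = 0.74, and 0.16 with group means removed) and followed H2-K1 more (r = 0.86 and 0.80). H2-K1 and H2-D1 had an r of 0.40, and 0.08 with group means removed. The 12 samples share groups and scaling, and these values carry no test. They include both R14del-PLN samples numbered 1, and r without that pair was not computed. In that pair H2-Eb1 to H2-Aa was 0.325 and 0.333, against 0.706 to 0.881 in the other 10 samples. H2-K1 to H2-D1 was 0.403 and 0.476 there, against 0.811 to 0.949.

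The genes most like the mean pattern of Cd74, H2-Aa, H2-Ab1 and H2-Eb1 over 12 samples were Sh3pxd2b (r = 0.96), Flcn (0.96), Gfpt2 (0.96), Rsrp1 (0.95) and Gm15459 (0.95), and r stayed between 0.87 and 0.93 once group means were removed. For the mean pattern of H2-K1, H2-D1 and B2m they were Txnrd2 (r = 0.96), Gm11808 (0.95), Zfand2b (0.95), Pdcd5 (0.95) and Nfkbib (0.95), at 0.88 to 0.90 with group means removed. The macrophage marker sum had an r of 0.61 with the class II pattern, and 0.89 with group means removed. For the other marker sums, r and then r with group means removed were 0.72 and 0.76 for dendritic cells, 0.27 and 0.77 for B cells, 0.59 and 0.50 for T cells and 0.24 and 0.47 for endothelial cells. They were 0.52 and 0.78 for adipocytes, 0.60 and -0.10 for red cells and 0.24 and 0.36 for cardiomyocytes. These correlations describe 12 samples that share scaling and carry no test.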

How the data were processed

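Poly(A) stranded RNA-seq libraries of LV and RV from 12 samples (4 groups of 3) were mapped by the authors to GRCm38 in CLC Genomics Workbench. The authors deposited 1 table per sample with TPM for 33641 genes. Depth is unknown, because TPM keeps none. The 9 genes were taken by symbol. The genes, lists and tests were chosen with earlier results of these data known, and genes of pathway lists were to be named with values only if called, with up to 4 of the highest mean TPM as examples. Values were analysed as log2(TPM + 1) with limma 3.58.1 (R 4.3.3, trend, 4 group means) over 12526 genes whose mean reached 0.5 TPM. A pseudocount of 1 understates changes of low genes. Calls took an adjusted p (Benjamini-Hochberg) no higher than 0.05 with a 1.5-fold change or more, the interaction the adjusted p alone. Ciita was tested without the filter. The fit was tested on simulated data. Same-numbered WT-PLN samples deviated together across ventricles (r = 0.66, 0.32 and 0.46) and were blocked as pairs in an alternative, while R14del-PLN samples did not all do so (r = 0.39, 0.23 and 0.05). Alternatives were other pseudocounts, filters and scalings, blocks for the sample number, and samples left out. Motifs and ratios were computed in Python 3.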

Additional observations from a re-analysis of the deposited data

How the results depend on the processing

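No member was called in the RV between genotypes, between ventricles in either genotype, or in the interaction, under any alternative run. In the LV between genotypes, where 0 members were called, 1 (H2-Eb1) was called after quantile normalization (adjusted p = 0.0321), after upper quartile scaling (0.0325), without mitochondrially encoded genes (0.0412) and with the replicate block that takes the sample number as a fixed effect (0.0055). Leaving out 1 sample gave 0 to 4 called members, and leaving out both WT-PLN samples numbered 1 gave 4. Other pseudocounts and filters and leaving out both R14del-PLN samples numbered 1 gave 0. Between genotypes within a ventricle, deviations of same-numbered samples had r from -0.02 to 0.22, against -0.16 to 0.08 for samples of other numbers. Whether samples of the same number share anything across genotypes was not tested. The block for LV and RV of the same number changed no call of a member, in WT-PLN either.

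Over all genes, the LV calls of 65 (12 higher, 53 lower) became 104 (39 and 65) after quantile normalization, 98 (32 and 66) after upper quartile scaling, 95 without mitochondrially encoded genes and 119 with the replicate block. The RV calls of 34 (9 and 25) became 85 (29 and 56), 91 (28 and 63), 73 (31 and 42) and 62.

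Of 36 differences of single genes, 10 changed sign under some alternative, none of them called. Between RV and LV in R14del-PLN, H2-Aa went from -0.052 to 0.053 (quantile), 0.020 (upper quartile) and 0.11 (without mitochondrially encoded genes). Without both R14del-PLN samples numbered 1, Cd74 went to -0.12, H2-Ab1 to -0.063, H2-Eb1 to -0.15 and Ciita to -0.030, and H2-D1 between genotypes in the RV to -0.22. Ciita between RV and LV in WT-PLN went from -0.027 to 0.046, 0.020 and 0.012 under the 3 scalings. With 1 sample left out, the RV to LV differences in R14del-PLN ranged from -0.21 to 0.12 for Cd74, -0.35 to 0.099 for H2-Aa, -0.057 to 0.18 for H2-Ab1, -0.29 to 0.35 for H2-Eb1, -0.030 to 0.066 for Ciita and -0.44 to 0.10 for H2-K1. Those of Ciita in WT-PLN ranged from -0.088 to 0.021, and the genotype differences from -0.27 to 0.062 for H2-D1 in the LV, -0.22 to 0.17 for H2-D1 in the RV and -0.19 to 0.029 for B2m in the RV. The causes were not tested.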

Other observations

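The samples numbered 1 of R14del-PLN differed from the other 10 in more genes of the H2 complex than the members. Among 94 genes with at least 0.5 TPM in any sample between H2-K1 and H2-T10 (chr17:33996017-36121465), 7 were lower and 4 higher in both of these samples than in all others, 11.7% in all. Over all 13842 such genes of the table the share was 4.0%, with 503 lower and 47 higher. The higher ones were H2-Ea-ps, H2-Bl, H2-T-ps (0.938 and 0.634 TPM against 0.167 at most) and H2-T10. The lower ones were H2-K1, H2-Eb1, H2-T22 (7.63 and 6.48 against 7.97 to 15.2 TPM), H2-T23 (5.37 and 6.35 against 6.76 to 15.1 TPM), Hspa1l, Cdsn and D17H6S53E. This choice of samples was made after their values were seen. Both ends of the stretch, H2-K1 and H2-T10, are themselves among the genes that stood apart. The share in the stretch therefore cannot be weighed against that of all genes. The counts are a description and carry no test.

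Depth, and with it the counting error of low genes such as Ciita and H2-DMa, is not known from these values. With 3 samples a group, single samples decided which class II genes were called, and for H2-Eb1 so did the scaling and the replicate block. In 2 WT-PLN samples the Y-linked genes went against the stated sex, and in 2 R14del-PLN samples the MHC genes had another balance. Each set lies in 1 genotype, so that what its samples carry and the genotype cannot be fully told apart.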
